A study of Mus musculus with 2 samples.

Results

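Small nuclear RNAs (snRNAs) expressed in the newborn mouse heart were taken as the genes whose every annotated transcript has the type snRNA and whose level was at least 1 TPM in both libraries. TPM, a level per length, is a read count divided by the length in which fragments can start and scaled to the library total. The rule kept 41 of 1383 snRNA genes, or 2.96%, in a table of 55536 mouse genes. The same TPM values chose these genes, so their levels are given here as a description and without a test. All values come from the deposited gene tables, and another deposited quantification of the same libraries lists every snRNA gene at 0. The study measured total RNA, with ribosomal RNA reduced and ERCC spike-ins added, in hearts of 4-day-old male B6CASTF1/J mice, from 300 ng of RNA per library. There are 2 biological replicates in 1 group with no treatment, so the design compares no conditions. The replicates carry different animal numbers but the same donor record, and if they came from 1 animal the spread between them would be technical only. They are called the 2 hearts below for short, although it is not certain that they are separate hearts. Ratios below are those of replicate 2 over replicate 1.

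Most snRNAs are the RNA cores of the particles (snRNPs) that splice pre-messenger RNA. In the major spliceosome, U1 base-pairs with the start of the intron, U2 with the branch point, and U4, U5 and U6 join as a tri-snRNP. In the minor spliceosome, which removes a rare class of introns, U11, U12, U4atac and U6atac take the matching roles and U5 is shared. U7 acts in the processing of histone messenger RNA. Except for U6 and U6atac, which carry a ring of LSm proteins, these RNAs bind a ring of Sm proteins at a short U-rich site, and the ring of U7 also holds Lsm10 and Lsm11. Mouse snRNA genes occur in many near-identical copies, and mouse U1 is known in a form called U1a and in U1b forms that are more abundant in embryonic than in adult tissues.

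The sequences below are a selection from the expressed genes, copied from the GENCODE M21 transcripts with mm10 coordinates and DNA letters. Gm23444 and Gm24497 are not shown and are described further on by their substitutions. The capitals mark the letters searched for: ACTTACCTG for U1, GTGTAGTA for U2, CCAATGAGG for U4, AAGGAGAGA for U6atac, TTGGGGTTG for U4atac, AAAAAGGG for U11 and AGTAAGGA for U12. Gm24145, shown for contrast, resembles U1 in part and holds none of the searched family letters.
Rnu2-10 (chr11:101658238-101658428, plus strand): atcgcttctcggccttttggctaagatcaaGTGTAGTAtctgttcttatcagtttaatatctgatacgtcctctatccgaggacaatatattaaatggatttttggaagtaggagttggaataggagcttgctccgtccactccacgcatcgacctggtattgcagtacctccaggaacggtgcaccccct
Rnu1a1 (chr11:87422867-87423030, plus strand): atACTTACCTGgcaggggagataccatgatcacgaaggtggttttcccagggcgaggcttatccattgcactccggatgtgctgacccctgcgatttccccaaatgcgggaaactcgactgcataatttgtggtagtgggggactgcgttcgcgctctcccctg
Rnu1b6 (chr3:96460024-96460189, minus strand): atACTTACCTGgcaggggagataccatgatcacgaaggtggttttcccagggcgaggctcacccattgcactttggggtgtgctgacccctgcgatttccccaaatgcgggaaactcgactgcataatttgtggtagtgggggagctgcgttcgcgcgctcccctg
Gm24265 (chr5:115489459-115489599, plus strand): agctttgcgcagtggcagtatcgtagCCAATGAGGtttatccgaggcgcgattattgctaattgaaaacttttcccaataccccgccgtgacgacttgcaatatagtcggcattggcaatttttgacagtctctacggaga
Rnu12 (chr15:83149644-83149794, plus strand): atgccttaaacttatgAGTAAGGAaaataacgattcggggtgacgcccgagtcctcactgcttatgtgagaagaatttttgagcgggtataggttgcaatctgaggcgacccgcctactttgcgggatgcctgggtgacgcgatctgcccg
Rnu11 (chr4:132270080-132270213, minus strand): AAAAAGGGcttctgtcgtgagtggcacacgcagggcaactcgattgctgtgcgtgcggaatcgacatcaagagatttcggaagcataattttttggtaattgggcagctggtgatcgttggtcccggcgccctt
Gm25541 (chr2:27539805-27539930, minus strand): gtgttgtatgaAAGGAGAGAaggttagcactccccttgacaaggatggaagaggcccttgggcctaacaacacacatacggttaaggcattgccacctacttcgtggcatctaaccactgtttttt
Gm22710 (chr1:118459141-118459265, minus strand): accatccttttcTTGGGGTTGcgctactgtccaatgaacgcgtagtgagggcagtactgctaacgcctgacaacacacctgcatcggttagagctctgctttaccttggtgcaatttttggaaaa
Gm24145 (chr16:11167105-11167267, minus strand): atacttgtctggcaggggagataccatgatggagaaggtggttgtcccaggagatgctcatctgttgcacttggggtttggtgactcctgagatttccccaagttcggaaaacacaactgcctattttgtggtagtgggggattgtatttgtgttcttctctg

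By identity to the named genes, the 41 genes fell into 3 sets. The Rnu1 set, at least 90% identical to the U1 gene Rnu1a1, held 18 genes with 8 different sequences, the least alike at 95.2% identity. The Rnu2-10 set, likewise defined from the U2 gene Rnu2-10, held 12 genes with 8 sequences, the least alike at 95.3%. The other 11 genes were at most 79.3% identical to either. RefSeq pairs no U family name with the Gm-numbered genes, so they are described here by sequence only.

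Only the transcript strand was searched for the family letters. The U1 letters were in 18 of the 41 expressed genes, against 3.98% of all 1383 snRNA genes. The U2 letters were in 12 of 41, against 2.24%, and the U4 letters were in 3, against 1.81%. The U11, U12, U4atac and U6atac letters were each in 1 expressed gene, and no gene among the 41 held the U5 letters GCCTTTTAC, the U6 letters ACAGAGA or the U7 letters GCTCTTTTA. An Sm-type site, searched as ATTTTTG, ATTTTTTG or ATTTGTG, was in 36 of 41 genes, against 17.5% of all snRNA genes. In no expressed gene did an Sm match overlap the family letters, and none held the letters of another family as well. Gm25541, which carries the U6atac letters, had no Sm match. The 2 sides of these shares also differ in length. No expressed gene was under 125 nt, while of the 1383 snRNA genes 1074 are under 120 nt and 309 are not. Among all snRNA genes over 120 nt, 52 hold the U1 letters, 26 the U2 letters, 15 the U4 letters and 123 an Sm-type site. No gene over 120 nt holds the U5 or U7 letters, and 3 hold the U6 letters.

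The 41 genes together held 36426 TPM in replicate 2 and 29189 TPM in replicate 1. Of the TPM of all mouse genes this was 3.67% in replicate 2 against 2.95% in replicate 1, a mean of 3.31% ± 0.514 (SD, n = 2). In expected counts, the gene table's estimate of reads per gene, replicate 2 had 80736 on these genes and replicate 1 had 53971. That amounts to 0.226% of all mouse gene counts in replicate 2, against 0.171% in replicate 1. TPM divides the counts by an effective length, which in the deposited table is the gene's length less 99 nt, so short RNAs weigh more in TPM than in counts. With the full length in its place, the share of TPM was 1.91% in replicate 2 and 1.51% in replicate 1. The other 1342 snRNA genes added almost nothing, since all 1383 together held 80757 counts in replicate 2 and 54019 in replicate 1.

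The Rnu2-10 set carried the most, with 65.8% of the 41 genes' counts in replicate 2 and 63.8% in replicate 1. The Rnu1 set followed with 27.4% in replicate 2 and 28.8% in replicate 1. Nearly all of the rest lay in Gm24265 and Gm24407, which hold the U4 letters and 6.53% of the counts in replicate 2 and 7.10% in replicate 1. The remaining 9 genes, with the named minor spliceosome RNAs among them, held 0.302% in replicate 2 and 0.309% in replicate 1. On the TPM scale, which divides by length, the Rnu2-10 set held 55.0% in replicate 2 and 52.8% in replicate 1. The Rnu1 set then held 32.3% of TPM in replicate 2 and 33.7% in replicate 1. The order of the sets was the same on both scales and in both hearts. It also runs with length, since the genes are of 191 nt in the Rnu2-10 set and 164 to 166 nt in the Rnu1 set. Gm24265 and Gm24407 are of 141 nt. The part of length in this order was not tested, so it is an order of listed values.

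**Figure D1:**
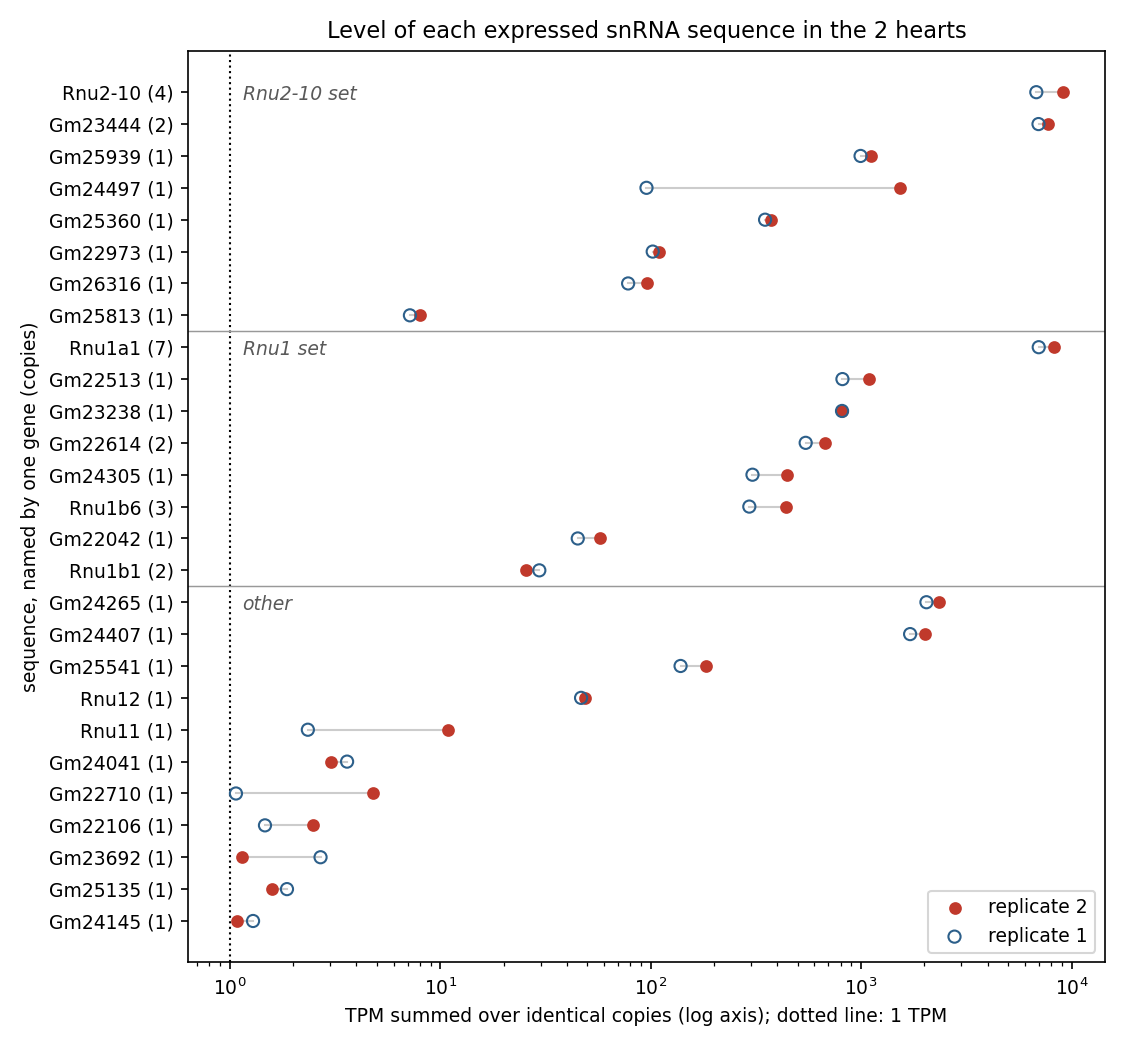
TPM of each of the 27 sequences on a log axis, summed over identical copies (number in brackets), with replicate 2 as filled and replicate 1 as open points. The Rnu2-10, Rnu1a1 and Gm23444 sequences lie between 6804 and 9119 TPM in both hearts, and Gm24497 shows the widest gap among those above 100 TPM in replicate 2.

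The 41 genes hold 27 different sequences, because 20 of them fall into 6 groups of exact copies. Within each of these 6 groups, the table gives every copy the same expected count in both libraries, so only the sum over copies is informative. The effective length corresponds to fragments of 100 nt, and 21 of the 41 genes have no stretch of 100 nt that is theirs alone, while in 13 genes every such stretch is unique. The sequence of Rnu2-10, a U2 gene on chromosome 11, is shared with Gm23849, Gm23971 and Gm24950. These 4 genes summed to 9119 TPM in replicate 2 and 6804 TPM in replicate 1. The sequence of Rnu1a1, a U1 gene, is shared by 7 genes and summed to 8217 TPM in replicate 2 and 6987 TPM in replicate 1. Gm23444 on chromosome 11 and Gm23472 on chromosome 1 share another sequence, which summed to 7698 TPM in replicate 2 and 6969 TPM in replicate 1. In both hearts these 3 sequences lay above all others, but by TPM Rnu2-10 was the highest of them in replicate 2 and the lowest in replicate 1. Their ranges over the 2 hearts overlapped, so they were not ordered beyond the spread between hearts. The order in replicate 1 also depends on how reads were assigned. By posterior mean counts, an average over possible assignments, the Gm23444 sequence had 11727 there and the equally long Rnu2-10 sequence 15203. On that measure Rnu2-10 was not the lowest in replicate 1.

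Within the Rnu2-10 set, single bases separate the annotated sequences, counted from 1 at the 5′ end of Rnu2-10. Substitutions and unique stretches here and below are those of the GENCODE M21 transcripts. Whether the B6CASTF1/J animals differ from them at these bases was not examined, and such differences could change which copy a read is given to. Gm23444 and Gm23472 differ from Rnu2-10 by G109C alone. Gm26316 differs by C170T alone and had 96.1 TPM in replicate 2 and 78.2 TPM in replicate 1, far below the copies it resembles. Gm25939 differs by T69C, C78T and G109C, has 78 unique stretches of 92, and had 1114 TPM in replicate 2 and 995 TPM in replicate 1. Gm25360 differs by C78T, A95G, G109C and C154T, and every stretch of it is unique. It had 374 TPM in replicate 2 and 350 TPM in replicate 1. Gm22973, with 9 substitutions, had 109.1 TPM in replicate 2 and 102 TPM in replicate 1, and Gm25813, with C78T and G131C, had 8.01 TPM in replicate 2 and 7.18 TPM in replicate 1. Gm25939, Gm25360, Gm22973, Gm26316 and Gm25813 kept this order in both hearts, and the ranges of neighbours over the 2 hearts did not overlap. The deposited intervals of TPM of Gm22973 and Gm26316 did overlap in both hearts, so the order of these 2 is uncertain. In replicate 2 they ran from 94.5 to 119 for Gm22973 and from 72.8 to 118 for Gm26316, which has 22 unique stretches of 92.

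The Rnu1 set divides into sequences close to Rnu1a1 and sequences close to the U1b genes Rnu1b1, Rnu1b2 and Rnu1b6. Close to Rnu1a1, Gm22513 differs by T60C and had 1091 TPM in replicate 2 and 816 TPM in replicate 1. Gm24305 differs by A26G and had 445 TPM in replicate 2 and 305 TPM in replicate 1. Gm23238, on chromosome 19, differs by G12A, A23T, C153T and C160A and had 816 TPM in replicate 2 and 812 TPM in replicate 1. The 3 genes that share the Rnu1b6 sequence summed to 439 TPM in replicate 2 and 294 TPM in replicate 1. Gm22614 and Gm25890, at 99.4% identity to Rnu1b2, summed to 676 TPM in replicate 2 and 546 TPM in replicate 1. Rnu1b1 and Rnu1b2, identical to each other, summed to only 25.7 TPM in replicate 2 and 29.6 TPM in replicate 1. Gm22042, at 98.8% identity to Rnu1b2 and alone on chromosome 4, had 57.2 TPM in replicate 2 and 45.1 TPM in replicate 1. Each of these sequences was below the Rnu1a1 sequence in both hearts.

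**Figure D2:**
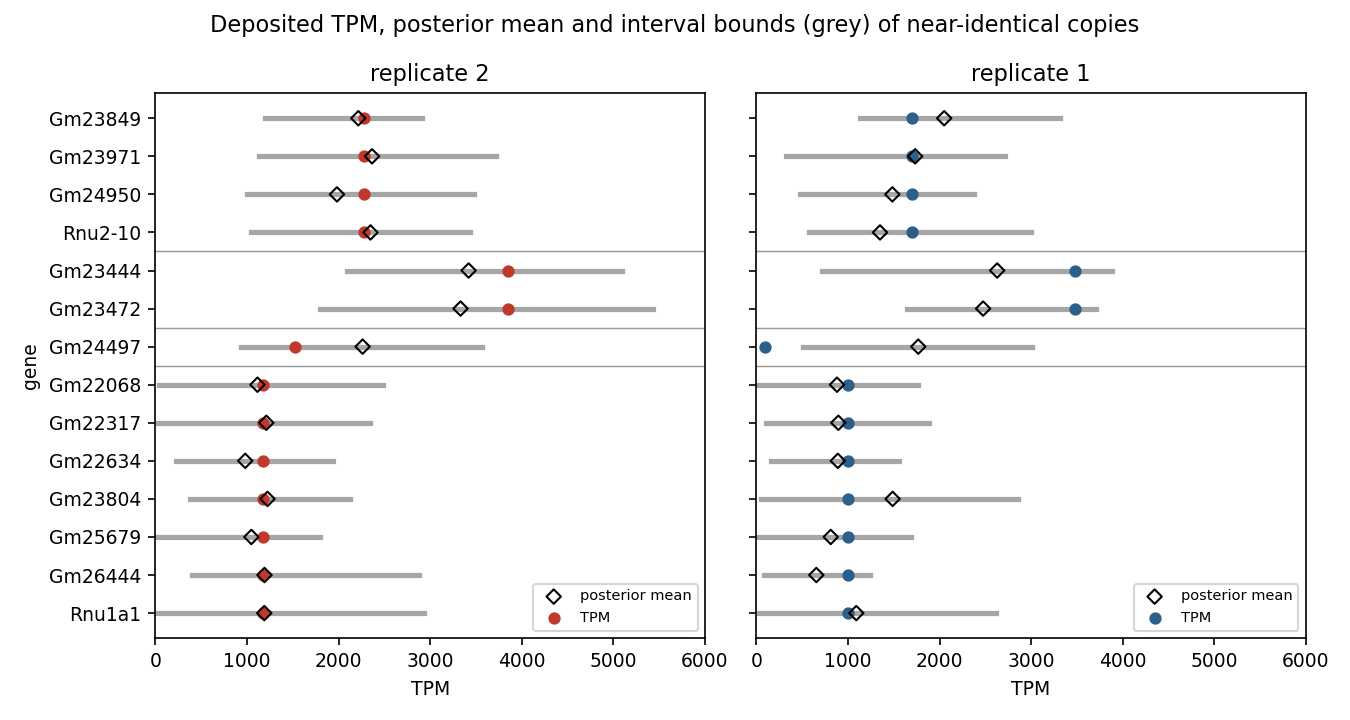
Deposited TPM (filled points), posterior mean TPM (diamonds) and interval bounds (grey bars) of the genes sharing the Rnu2-10, Gm23444 and Rnu1a1 sequences and of Gm24497, with replicate 2 left and replicate 1 right. The bars of exact copies span wide ranges around 1 shared TPM, and in replicate 1 the TPM of Gm24497, 95.6, lies below its bar, which starts at 514.

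Gm24497 differs from Gm23444 by C186A alone, near the 3′ end, and has 6 unique stretches of 92. It had 1527 TPM in replicate 2 and 95.6 TPM in replicate 1, from 4048 expected counts in replicate 2 and 213 in replicate 1. It is the only one of the 41 genes whose deposited interval of TPM did not hold the TPM itself, with bounds of 514 and 3013 in replicate 1. The level of these intervals is not stated. The deposited posterior mean counts, an average over possible read assignments, were 6137 in replicate 2 and 4060 in replicate 1. Summed with Gm23444 and Gm23472, it came to 24454 expected counts in replicate 2, against 15788 in replicate 1. After scaling, that sum was 1.43-fold higher in replicate 2 (95% counting interval 1.40 to 1.46), and the sum of the whole Rnu2-10 set was 1.42-fold higher.

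Outside the Rnu1 and Rnu2-10 sets, Gm24265 and Gm24407 had the highest levels. They lie on chromosome 5 within 0.936 kb, are 98.6% identical, and differ by G88A and C99A counted from the 5′ end of Gm24265. Gm24265 had 2346 TPM in replicate 2 and 2045 TPM in replicate 1. Gm24407 had 2009 TPM in replicate 2 and 1710 TPM in replicate 1. Every stretch of 100 nt in both genes is unique among the annotated transcripts, so unlike the copies above their reads can be told apart by those sequences. The lower value of Gm24265 lay above the higher value of Gm24407, so their ranges over the 2 hearts did not overlap.

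The genes that carry the letters of minor spliceosome RNAs were far below the Rnu1a1 and Rnu2-10 sequences in both hearts. Rnu12, the U12 gene on chromosome 15, had 48.7 TPM in replicate 2 and 46.7 TPM in replicate 1, from 73 counts in replicate 2 and 59 in replicate 1. Rnu11, the U11 gene on chromosome 4, had 10.9 TPM in replicate 2 and 2.35 TPM in replicate 1, from 11 counts in replicate 2 and 2 in replicate 1. Gm25541, the only expressed gene with the U6atac letters, had 184 TPM in replicate 2 and 139 TPM in replicate 1, from 143 counts in replicate 2 and 91 in replicate 1. At 126 nt its effective length is 27 nt, so its TPM is 3.84 times its full-length TPM, the most of any sequence above 10 TPM. Gm22710, the only snRNA gene with the U4atac letters, had 4.79 TPM in replicate 2 and 1.07 TPM in replicate 1, from 3.59 expected counts in replicate 2 and 0.67 in replicate 1. All of its 26 stretches of 100 nt also occur in the exon of 2900060B14Rik that it lies in, so its reads cannot be told from those of that gene.

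Of the 41 genes, 27 lie in 6 clusters, with less than 100 kb between neighbours. On chromosome 12, 7 genes of the Rnu1 set lie within 41.8 kb (mm10 chr12:54696782-54738622), and these include 5 copies of the Rnu1a1 sequence. They summed to 7406 TPM in replicate 2 and 6111 TPM in replicate 1. The remaining pair of Rnu1a1 copies, Rnu1a1 itself and Gm22068, lies within 4.01 kb on chromosome 11 in an intron of Tex14. On chromosome 3, 7 genes of the Rnu1 set, all close to the U1b genes, lie within 160 kb (chr3:96328425-96488893). They summed to 1141 TPM in replicate 2 and 869 TPM in replicate 1. The Rnu2-10 set has clusters of 5 genes on chromosome 11 (chr11:101604850-101658428) and of 4 genes on chromosome 1 (chr1:72226240-72255198). The chromosome 11 cluster summed to 9215 TPM in replicate 2 and 6882 TPM in replicate 1. The chromosome 1 cluster, which holds Gm24497, summed to 6864 TPM in replicate 2 and 4924 TPM in replicate 1. The sums of the chromosome 12 and chromosome 1 clusters rest on the even division of counts among exact copies, some of which lie elsewhere. The sums of the chromosome 3 and chromosome 11 clusters do not, since they hold every copy of their sequences.

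On the same strand as another gene lay 12 of the 41 expressed genes, or 29.3%, and 22.3% of all snRNA genes. By level, the 5 highest of these were Gm23472, Gm23849, Rnu1a1, Gm22068 and Gm25939. Gm23472, Gm24497 and Gm25939 lie in an intron of the noncoding gene D230017M19Rik, which had 0.36 TPM in replicate 2 and 0.45 TPM in replicate 1. Gm23849 lies in an intron of Rdm1, which had 14.7 TPM in replicate 2 and 11.3 TPM in replicate 1. Tex14 had 0.01 TPM in replicate 2 and 0.3 TPM in replicate 1. Of these, only Gm25939 has mostly unique sequence, and its deposited lower bounds, 1050 TPM in replicate 2 and 926 TPM in replicate 1, lie above the level of its host. The exact copies carry an even split of their summed counts, and the lower bound of Gm22068 in replicate 1 was 0.64 TPM.

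Gm24041, Gm22710, Gm22106, Gm23692, Gm25135 and Gm24145 had fewer than 10 counts in both libraries, and all 6 lie inside a gene on the same strand. Among the other 35 expressed genes, 6 did. Of their hosts, Ptp4a3, a phosphatase gene around Gm22106, had 184 TPM in replicate 2 and 181 TPM in replicate 1. Ttc3 around Gm23692 had 72.6 TPM in replicate 2 and 81.2 TPM in replicate 1, and Adgrf5 around Gm25135 had 59.2 TPM in replicate 2 and 63.1 TPM in replicate 1. Tmem65 around Gm24041 had 33.2 TPM in replicate 2 and 40.4 TPM in replicate 1, and Zc3h7a around Gm24145 had 24.4 TPM in replicate 2 and 33.4 TPM in replicate 1. The host of Gm22710, 2900060B14Rik, had 1.37 TPM in replicate 2 and 1.22 TPM in replicate 1, against 4.79 TPM in replicate 2 and 1.07 TPM in replicate 1 for Gm22710 itself. The part of unspliced host RNA in these few counts was not tested. Of these 6 genes, Gm22710 and Gm25135 hold the letters of a U family, and Gm22710 and Gm24145 hold an Sm match, against 35 and 34 of the other 35 genes.

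Just inside the threshold lay Gm22710, with a lower TPM of 1.07, Gm24145 with 1.08 and Gm23692 with 1.14. Just outside lay Gm23887, with 0.95, Gm25184 with 0.92 and Gm24671 with 0.70. All 6 had at most 4 expected counts in either library, so counting error alone spans the threshold for them. By deposited TPM, the threshold does not touch the upper part of the list. There, 28 genes had at least 100 counts in both libraries and 18 had at least 1000. Exact copies among them hold an even share of a summed count, so the place of any single copy against the threshold is less sure. For Rnu1b6 the deposited lower bounds were 0.216 TPM in replicate 2 and 0.00177 TPM in replicate 1, both under the threshold.

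No expressed gene was shorter than 125 nt, while the median length of all snRNA genes was 107 nt. The 1074 snRNA genes under 120 nt held 1.73 counts in replicate 2 and 2.60 in replicate 1, in sum, and only 5 of them had any count. Of the 309 genes of 120 nt or more, 74 had a count in either library, and together they held 80755 counts in replicate 2 and 54016 in replicate 1. The 193 genes under 100 nt have an effective length of 0 in the deposited table and so no TPM to give. Among genes of 170 to 200 nt, 21.1% reached 1 TPM in both libraries.

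**Figure D3:**
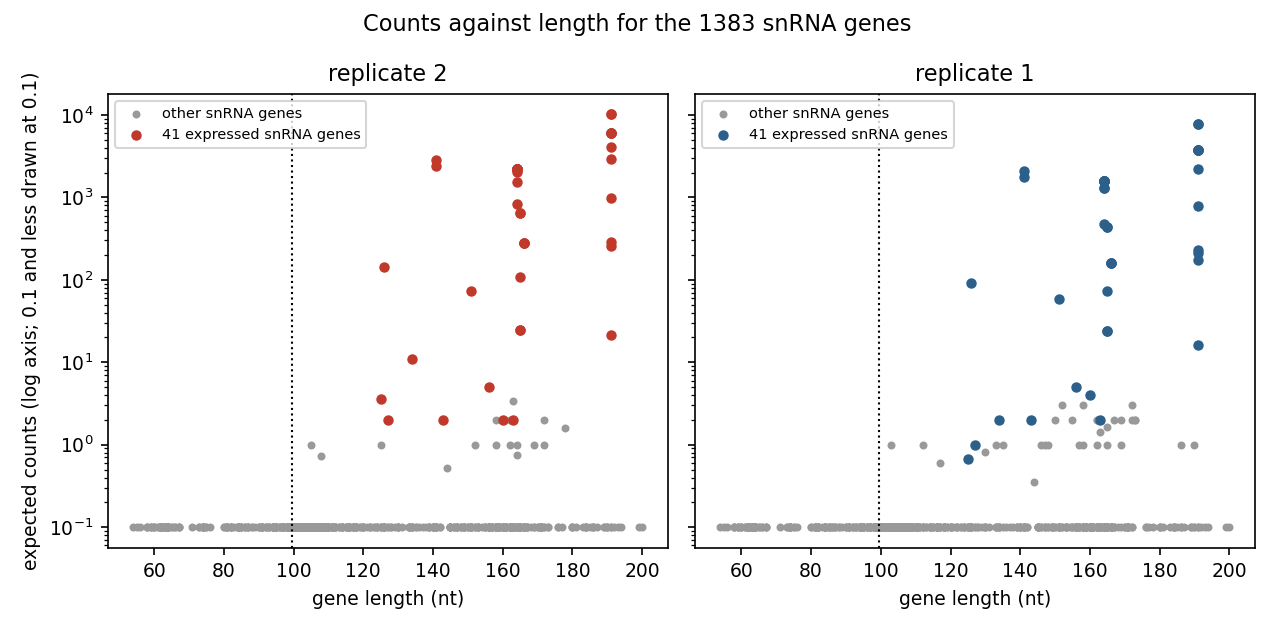
Expected counts (log axis) against gene length in nt for all 1383 snRNA genes, with replicate 2 left and replicate 1 right; the 41 expressed genes are coloured, values of 0.1 and less are drawn at 0.1, and the dotted line marks the length at which the effective length falls to 0. No gene under 120 nt has more than 1 count in either heart.

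The named snRNA genes outside the 41 were all short. Rnu5g, a U5 gene of 116 nt with an effective length of 17 nt, was listed at 0 in both libraries. Rnu6 and Rnu6-ps2, a U6 gene and a U6 pseudogene of 107 nt with an effective length of 8 nt, were listed at 0 in both, as was Rnu7, the U7 gene of 62 nt. U5 and U6 are parts of the spliceosome in every cell that splices, so these zeros are listed values and not levels of the RNA. The U6 letters occur in 583 snRNA genes, of which 2 had any count. All 9 genes with the U5 letters had 0 counts. Where the effective length is above 0, a count of 0 allows up to 3 counts, for counting error only. That is 0.0839 CPM in replicate 2 and 0.0952 in replicate 1. The bound does not apply to Rnu7, whose effective length is 0, and it limits counts, not the level of an RNA.

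Small nucleolar RNAs (snoRNAs), another class of short nuclear RNA, showed a like division by length in the same table. The 458 snoRNA genes under 100 nt also have an effective length of 0, so their counts of 0 are listed values and not levels of the RNA. Of those of 120 to 129 nt, 4.58% reached 1 TPM in both libraries, as did 9.81% at 130 to 149 nt. The share was 7.69% of 13 genes at 150 to 169 nt, 27.3% of 11 genes at 170 to 200 nt and 53.3% over 200 nt. The other deposited quantification listed 0 for all 1383 snRNA genes, so the values of the 41 genes rest on the gene tables alone.

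Between the hearts, the expressed snRNAs were higher in replicate 2. After scaling that equalises the bulk of genes, the summed counts of the 41 genes were 1.38-fold higher in replicate 2 (95% counting interval 1.37 to 1.40). The Rnu2-10 set was 1.42-fold higher (1.41 to 1.44), the Rnu1 set 1.31-fold (1.28 to 1.34), and the sum of Gm24265 and Gm24407 1.27-fold (1.22 to 1.32). These intervals cover counting error only, and 2 hearts of 1 group give no test of the difference. Of the 41 genes, 34 passed a filter on low counts. Their median log2 ratio was 0.36, with 32 higher in replicate 2 and 2 lower. Exact copies among them have the same ratio, so these are not 34 separate values. Over all 16271 genes that passed, the median was -0.0033 and 49.6% were higher in replicate 2. For the 55 snoRNA genes that passed, the median was 0.14 and 67.3% were higher.

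A change of over 2-fold toward replicate 2 was seen in 1 of the 34 genes, Gm24497, while 0.842% of all genes that passed were over 2-fold higher in replicate 2. No gene of the 34 was over 2-fold lower, against 2.22% of all genes. Gm24497 had a log2 ratio of 4.12 (4.13 without a prior count), which was the highest among the 16271 genes, but of 0.48 with the posterior mean counts. After Gm24497, by log2 ratio, came the Rnu1b6 group at 0.71, Gm24305 at 0.68, the Rnu2-10 group at 0.55 and Gm22513 at 0.55. At the low end among sequences with 100 counts or more were Gm23238 at 0.14, Gm22973 at 0.22, Gm25360 at 0.22, the Gm23444 group at 0.27 and Gm25939 at 0.29. The place of the Gm23444 group depends on the read assignment, like that of Gm24497. With posterior mean counts Gm23444 was at 0.50 and Gm23472 at 0.55. The summed expected counts of Gm23444, Gm23472 and Gm24497 were at 0.51. Of 20 sequences with at least 10 counts in both hearts, 19 were higher in replicate 2, and Rnu1b1 was at -0.07 with an interval of -0.66 to 0.55. Rnu11 did not pass the filter, and its ratio was 5.07-fold with an interval of 1.11 to 47.1.

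**Figure D4:**
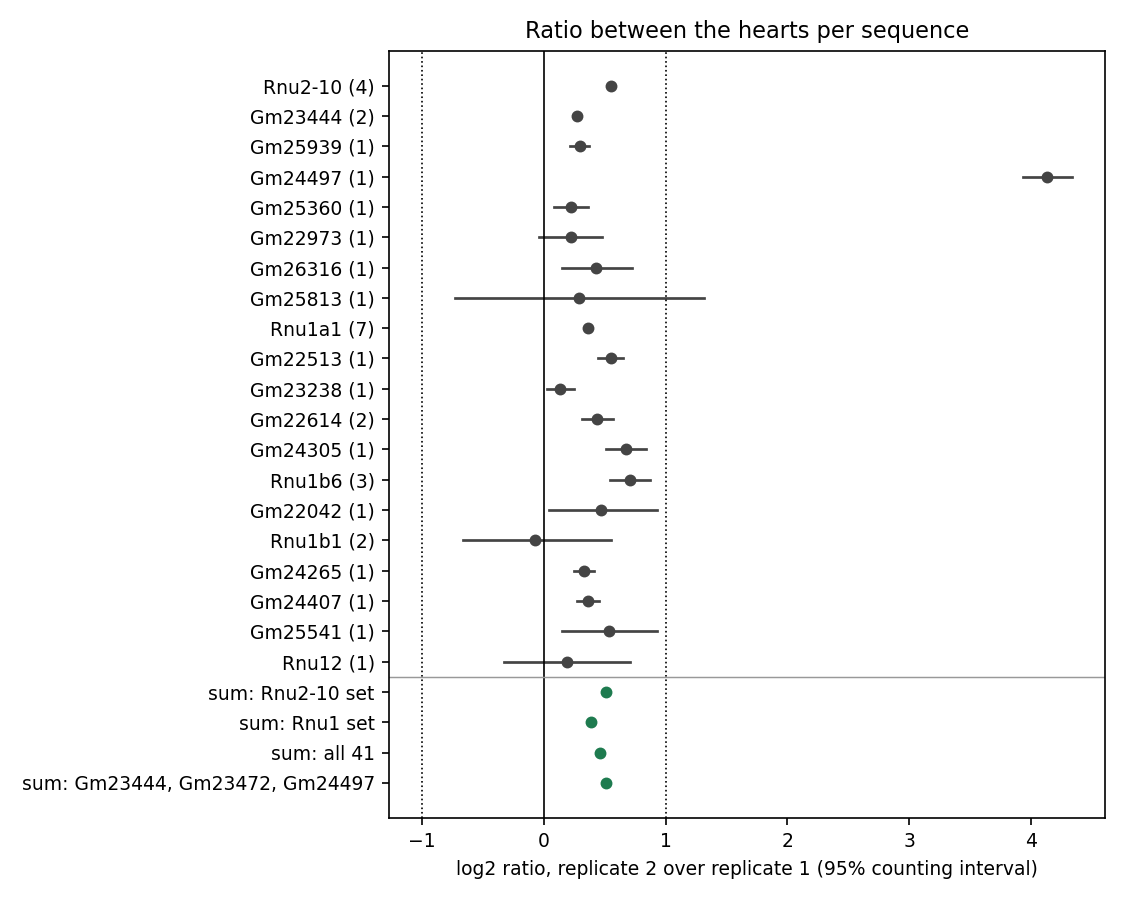
Log2 ratio of replicate 2 over replicate 1 for the 20 sequences with at least 10 counts in each heart (copies in brackets) and for 4 sums below the grey line; bars are 95% counting intervals and dotted lines mark 2-fold. All points but Gm24497, at 4.13, lie between -0.07 and 0.71.

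The hearts also differed in their cell type markers. The 6 cardiomyocyte markers were all expressed and summed to 20706 TPM in replicate 2 and 22161 TPM in replicate 1. The 3 red cell markers summed to 3554 TPM in replicate 2 and 939 TPM in replicate 1, and the 3 fibroblast markers to 1115 TPM in replicate 2 and 788 TPM in replicate 1. The 3 endothelial markers summed to 236 TPM in replicate 2 and 264 TPM in replicate 1. The hepatocyte, neuron and lymphocyte markers, 9 in all, had mean levels of at most 1.995 TPM. The part of these cell types in the snRNA ratio was not tested, and in bulk tissue fewer cells of a type and less RNA per cell cannot be told apart. Mouse genes had 35744013 counts in replicate 2, against 31512596 in replicate 1, and spike-ins took 0.545% of the counts on mouse genes and spike-ins together in replicate 2 and 0.588% in replicate 1.

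Genes for the proteins that bind and assemble these RNAs were expressed in both hearts. From 11 lists with 118 genes, 117 matched a gene in the table and all 117 were at least at 1 TPM in both hearts, while 53.9% of all protein-coding genes were. The gene Cenatac was not matched. The median over the 117 was 12.8 TPM, close to the median of expressed protein-coding genes, 12.3 TPM. These levels are of messenger RNA, on the TPM scale. The lists are of named complexes and steps, and earlier results of these data were known when they were chosen.

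The Sm ring, the proteins that close around the U-rich site, had the highest list median, 41.5 TPM over 8 genes. Its highest were Snrpb, with 96.3 TPM in replicate 2 and 94.96 TPM in replicate 1, Snrpn, with 40.9 TPM in replicate 2 and 96.2 TPM in replicate 1, and Snrpe, with 60.6 TPM in replicate 2 and 61.8 TPM in replicate 1. Snrpn, which encodes SmN, a tissue-restricted relative of SmB, was the only one of the 117 genes over 2-fold apart, at a log2 ratio of -1.11. It overlaps Snurf in the genome, so the division of reads between them is uncertain. The LSm ring of U6 had a median of 21.2 TPM over 7 genes, led by Lsm4, Lsm3 and Lsm6 at means of 48.2, 41.9 and 38.7 TPM. The pair specific to U7, Lsm10 and Lsm11, had means of 7.20 and 4.43 TPM.

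Proteins of the U1 snRNP had a median of 34.1 TPM over 6 genes, led by Snrnp70, a U1 protein, with 85.0 TPM in replicate 2 and 118.95 TPM in replicate 1, then by Luc7l2 and Snrpc. Those of the U2 snRNP had a median of 22.6 TPM over 12 genes, led by Sf3b2 and Sf3b1, which hold the branch point, at means of 57.7 and 56.0 TPM, and then Sf3b6. The tri-snRNP list had a median of 21.4 TPM over 16 genes, led by Prpf8, its large scaffold, at 46.7 TPM, Eftud2 at 33.6 TPM and Snrnp200, a helicase, at 31.6 TPM. Proteins of the minor spliceosome had a median of 8.19 TPM over 9 genes, led by Zcrb1 at 34.6 TPM, Zmat5 at 10.2 TPM and Zrsr2 at 9.36 TPM. The lists of the U1, U2 and tri-snRNP proteins thus had higher medians than the minor list in both hearts.

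The SMN complex, which loads Sm rings, had a median of 5.96 TPM over 9 genes, led by Strap at 49.1 TPM, Gemin7 at 25.5 TPM and Smn1 at 12.7 TPM. The capping, export and maturation list had a median of 11.3 TPM over 14 genes, led by Wdr77, Clns1a and Prmt5, the methylation complex for Sm proteins, at 26.7, 18.5 and 16.7 TPM. The list of SNAPc, which acts at snRNA promoters, its partners and RNA polymerase III had a median of 8.04 TPM over 20 genes. It was led by Snapc3, Bdp1 and Polr3c at 12.8, 12.7 and 11.4 TPM. The Integrator complex, which cleaves the 3′ ends of snRNA precursors, had a median of 12.025 TPM over 14 genes, led by Ints1, Ints4 and Ints10 at 23.3, 20.1 and 17.4 TPM. Between the hearts, the median log2 ratio over the 117 genes was 0.02, with 64 higher in replicate 2. Of all protein-coding genes that passed the filter, 52.7% were higher. Integrator was at -0.23, with 3 of 14 genes higher in replicate 2, and the LSm ring at 0.22, with 6 of 7 higher.

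**Figure D5:**
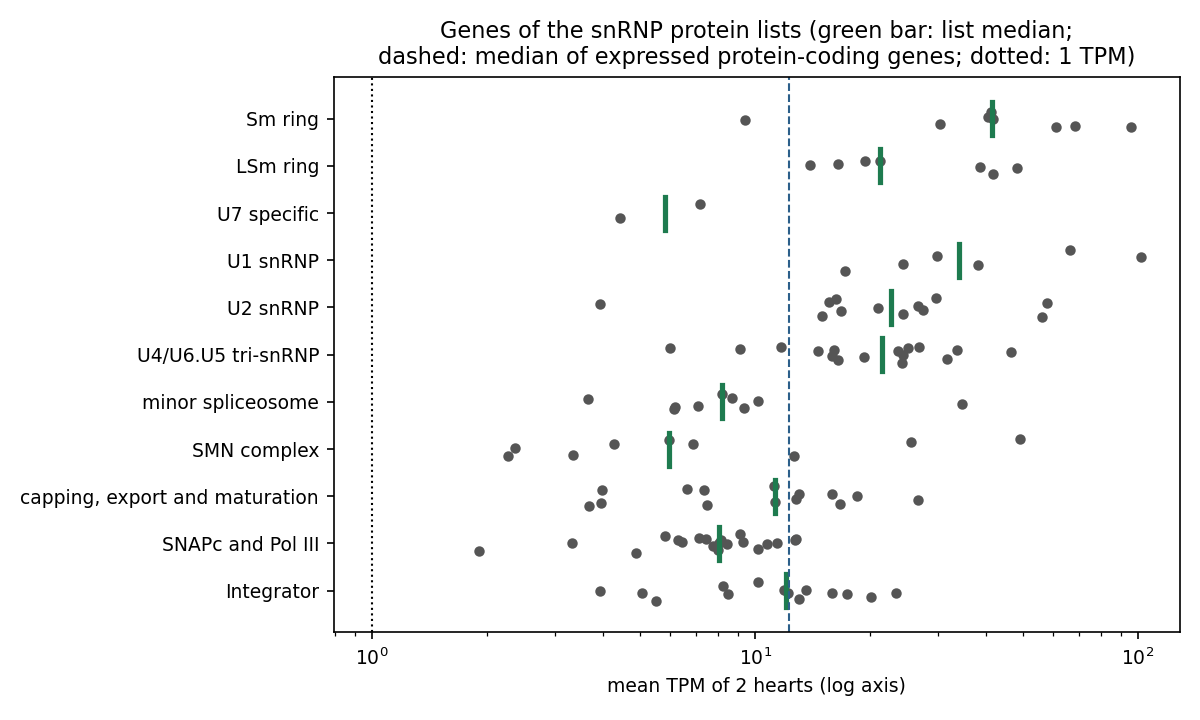
Mean TPM of the 2 hearts on a log axis for the 117 matched genes of the 11 protein lists (points), with list medians as green bars. The Sm ring and U1 snRNP medians, 41.5 and 34.1 TPM, lie to the right of the dashed median of expressed protein-coding genes, and the SMN complex median, 5.96 TPM, lies to its left.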

How the data were processed

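Total RNA of the 2 replicates was measured as 1 library each. Per the file headers, the authors' deposited gene tables hold expected counts, TPM, posterior mean counts and bounds of TPM in columns named as RSEM writes them, and a further deposited transcript table holds estimated counts and TPM as kallisto names them. Notes deposited with the files give the build mm10 and GENCODE M21. The aligner and its version are not given in the sources used here. Effective lengths in the authors' deposited tables, used as a length signal, were taken as they stand.

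Members and gene lists were chosen with earlier results of these data known. Named were all members with a symbol other than a Gm number, the Gm members among the 20 highest, those nearest the threshold, those with the 5 largest log2 ratios each way above 100 mean counts, the 5 highest inside a sense gene and the 3 highest of each list. Members outside this rule were named after their values were seen. Transcript sequences and hosts came from GENCODE M21 (same build), names from RefSeq GRCm38.p6. Promoters of the members were not analysed here.

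Expected counts were rounded, filtered with filterByExpr and scaled with TMM in edgeR 4.0.16 (R 4.3.3), and log2 ratios used a prior count of 2. Ratios of summed counts used unrounded counts with exact binomial intervals at 95%. DESeq2 1.42.0 size factors and spike-in scaling were alternatives. No test was run, since 1 group holds no contrast. The spike-ins and the numbered rows without a gene name did not enter library sizes, and the numbered rows had 4 counts, or 1.11e-05%, in replicate 2, against 2 counts, or 6.31e-06%, in replicate 1. Other tools were Python 3.11.15, SciPy 1.17.1 and Biopython 1.88. The ratio step was tested on simulated data.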

Additional observations from a re-analysis of the deposited data

How the results depend on the processing

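The number of expressed snRNA genes was 49 at a threshold of 0.5 TPM, 36 at 2 TPM, 35 with full-length TPM, and 34 with at least 10 expected or posterior mean counts in both libraries. It was 0 in the other deposited quantification, and from 1 library alone it ranged from 47 to 61. The share of mouse-gene TPM, 3.31%, was 0.199% in expected counts, 1.71% with full-length TPM, 4.07% of nuclear genes and 0 in the other quantification, and ranged from 2.95% to 3.67% over the libraries. Over 2-fold higher in replicate 2 were 2 genes with no filter (Gm24497 and Rnu11) and 0 with posterior mean counts, where Gm24497 had a log2 ratio of 0.48. No expressed snRNA gene that passed the filter was over 2-fold lower under the planned or added alternatives, and none was with no filter and a prior count of 2. With no prior count, Gm23692, which did not pass the filter, was at 0.461-fold from 2 counts in replicate 2 and 4 in replicate 1 (95% counting interval 0.0417 to 3.22). By TPM, Gm23692 was also over 2-fold lower, with 1.14 in replicate 2 and 2.70 in replicate 1. The median log2 ratio stayed between 0.23 and 0.43, with 0.30 by library size and 0.41 by spike-ins. Against the 95% counting interval, the ratio of 14 of 34 genes moved outside it with posterior mean counts, of 18 with TPM, of 6 with library size and of 2 with spike-ins. Posterior mean counts and copies counted once were chosen after seeing the data. The other quantification gave no ratios, since its values were 0. All 117 list genes were expressed at 0.5 TPM and in the other quantification, and 116 at 2 TPM. The causes of these shifts were not tested. The filter left out 7 expressed genes. No paired analysis was possible because there is 1 group.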
